A study of Mus musculus with 6 samples.

Results

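Neutrophil granule genes were followed as 2 stages of granule formation in RNA-seq of blood stem cells. The primary stage held 4 genes of the first granules that a neutrophil precursor makes, Mpo, Elane, Ctsg and Prtn3. The later stage held 6 genes of the granules and the cytosol that are filled afterwards, Ltf, Ngp, Lcn2, Camp, S100a8 and S100a9. These 10 genes were taken by symbol through the Ensembl identifier, and all 10 were found among the 30409 identifiers in each file. No measured value entered the choice by rule, although the genes were proposed with results of these data known.

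The cells were sorted from bone marrow of C57BL/6 mice as Lineage−Sca1+cKit+CD34−Flk2−, a surface phenotype of long-term hematopoietic stem cells (LT-HSC), the cells that can renew the blood for the life of the animal. There were 4 libraries: Twist1 cKO cells at 12 days after irradiation, wild type cells at 12 days after irradiation, Twist1 cKO cells at steady state and wild type cells at steady state. Twist1 encodes a DNA-binding factor of the helix-loop-helix class that reads E-box letters, and the series asks what its deletion does in these cells with and without radiation stress. Each of the 4 groups had 1 library, so no difference below has a replicate check and none was tested. The driver of the deletion, the age and sex of the mice, the radiation dose and the number of mice per library are not given in the sources used here. From irradiated cells the series also has 2 ATAC-seq samples, not analysed here.

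Neutrophils pack their antimicrobial proteins into granules that are named by the order in which they form. Primary, or azurophil, granules are loaded at the promyelocyte stage with myeloperoxidase and a family of serine proteases, and the transcription of these genes is shut off as the cell moves on. Secondary, or specific, granules are loaded at the myelocyte and metamyelocyte stages with iron-binding and cathelicidin proteins, while the cytosol fills with the calcium-binding pair S100A8 and S100A9. The factors PU.1, C/EBP alpha, C/EBP epsilon and Gfi1 are known to act on these genes in granulocyte precursors, and stem cells and multipotent progenitors can already carry low amounts of primary granule transcripts.

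The 4 primary genes encode myeloperoxidase, which makes hypochlorous acid (Mpo, ENSMUSG00000009350), neutrophil elastase (Elane, ENSMUSG00000020125), cathepsin G (Ctsg, ENSMUSG00000040314) and proteinase 3 (Prtn3, ENSMUSG00000057729). In the RefSeq annotation of GRCm38.p6, the build also called mm10, Mpo lies on chromosome 11 at 87793784 to 87804412 and Ctsg on chromosome 14 at 56099885 to 56102574. Prtn3 (79879667 to 79883174) and Elane (79886312 to 79888216) are neighbours on chromosome 10, with 3137 bases between them.

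The later genes encode lactoferrin, an iron-binding protein (Ltf, ENSMUSG00000032496), neutrophilic granule protein, a relative of the cathelicidins (Ngp, ENSMUSG00000032484), lipocalin 2, which binds bacterial iron carriers (Lcn2, ENSMUSG00000026822), the mouse cathelicidin (Camp, ENSMUSG00000038357) and both chains of calprotectin (S100a8, ENSMUSG00000056054, and S100a9, ENSMUSG00000056071). Camp (109847377 to 109849456), Ngp (110419808 to 110423012) and Ltf (111019292 to 111042766) all lie on chromosome 9. Lcn2 lies on chromosome 2 at 32384637 to 32387739. S100a8 (90669071 to 90670034) and S100a9 (90692630 to 90695721) lie on chromosome 3 on opposite strands, with 22595 bases between them.

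The upstream flanks of all 4 primary genes and of 2 later genes are printed because the stages differed in which letters they held. Each runs 5′ to 3′ along the gene's own strand for the 250 bases before the annotated start, from the RefSeq promoter table of GRCm38.p6, which held all 10 genes. Capitals mark the PU.1 core GAGGAAG and the C/EBP core TTGCNNAA on either strand. The later genes printed, Ltf and Ngp, hold the C/EBP core and not the PU.1 core. The later genes not printed were mixed: Lcn2 holds both cores, S100a8 the PU.1 core alone, S100a9 the C/EBP core alone and Camp neither.
Mpo, chr11:87793534-87793783, plus strand: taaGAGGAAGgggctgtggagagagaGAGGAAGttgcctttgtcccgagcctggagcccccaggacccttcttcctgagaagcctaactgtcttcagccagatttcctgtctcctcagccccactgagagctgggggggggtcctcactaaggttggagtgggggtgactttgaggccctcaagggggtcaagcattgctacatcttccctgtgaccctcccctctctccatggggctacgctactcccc
Elane, chr10:79886062-79886311, plus strand: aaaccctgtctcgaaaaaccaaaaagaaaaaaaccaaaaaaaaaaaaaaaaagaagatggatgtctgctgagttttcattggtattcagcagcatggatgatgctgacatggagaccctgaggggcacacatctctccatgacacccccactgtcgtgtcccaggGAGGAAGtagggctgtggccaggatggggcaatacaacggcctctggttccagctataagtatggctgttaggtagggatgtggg
Ctsg, chr14:56102575-56102824, minus strand: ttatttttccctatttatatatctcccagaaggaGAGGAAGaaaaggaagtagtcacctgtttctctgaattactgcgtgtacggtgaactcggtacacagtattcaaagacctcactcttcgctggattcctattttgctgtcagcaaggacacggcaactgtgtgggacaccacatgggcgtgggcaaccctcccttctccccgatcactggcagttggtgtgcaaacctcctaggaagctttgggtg
Prtn3, chr10:79879417-79879666, plus strand: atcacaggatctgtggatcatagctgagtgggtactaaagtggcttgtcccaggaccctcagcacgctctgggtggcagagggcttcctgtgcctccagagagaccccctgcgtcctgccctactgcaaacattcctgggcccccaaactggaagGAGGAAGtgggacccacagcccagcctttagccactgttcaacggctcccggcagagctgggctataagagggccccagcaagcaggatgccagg
Ltf, chr9:111019042-111019291, plus strand: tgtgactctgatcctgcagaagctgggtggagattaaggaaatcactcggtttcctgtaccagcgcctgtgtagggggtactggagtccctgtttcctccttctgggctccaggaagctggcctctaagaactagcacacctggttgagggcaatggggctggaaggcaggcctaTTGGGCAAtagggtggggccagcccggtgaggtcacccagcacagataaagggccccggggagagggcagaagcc
Ngp, chr9:110419558-110419807, plus strand: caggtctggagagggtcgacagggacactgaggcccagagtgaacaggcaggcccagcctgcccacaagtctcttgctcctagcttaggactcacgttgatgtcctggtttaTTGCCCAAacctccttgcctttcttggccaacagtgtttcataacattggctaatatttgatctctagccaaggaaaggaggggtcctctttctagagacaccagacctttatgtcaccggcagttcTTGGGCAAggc

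GAGGAAG, read on both strands over the 300 bases of each table entry (250 before and 50 after the start), was present in 4 of 4 primary and 2 of 6 later genes (Lcn2 and S100a8), against 13.6% of 32851 promoters. TTGCNNAA was present in 0 of 4 primary and 4 of 6 later genes (Ltf, Ngp, Lcn2 and S100a9), against 10.8% of promoters. Mpo held GAGGAAG at 2 places, and Ngp held TTGCNNAA at 2 places. The Gfi1 letters TAAATCAC were in 0 of the 10 genes and in 0.578% of promoters. Of letters added after the values were known, the E-box CAGATG was in S100a9 alone among the 10 genes (17.2% of promoters), the E-box CATATG was in 0 (3.91% of promoters), and TATAAA was in Ctsg, S100a8 and S100a9 (13.6% of promoters). These are matches of letters and not measured binding.

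**Figure D1:**
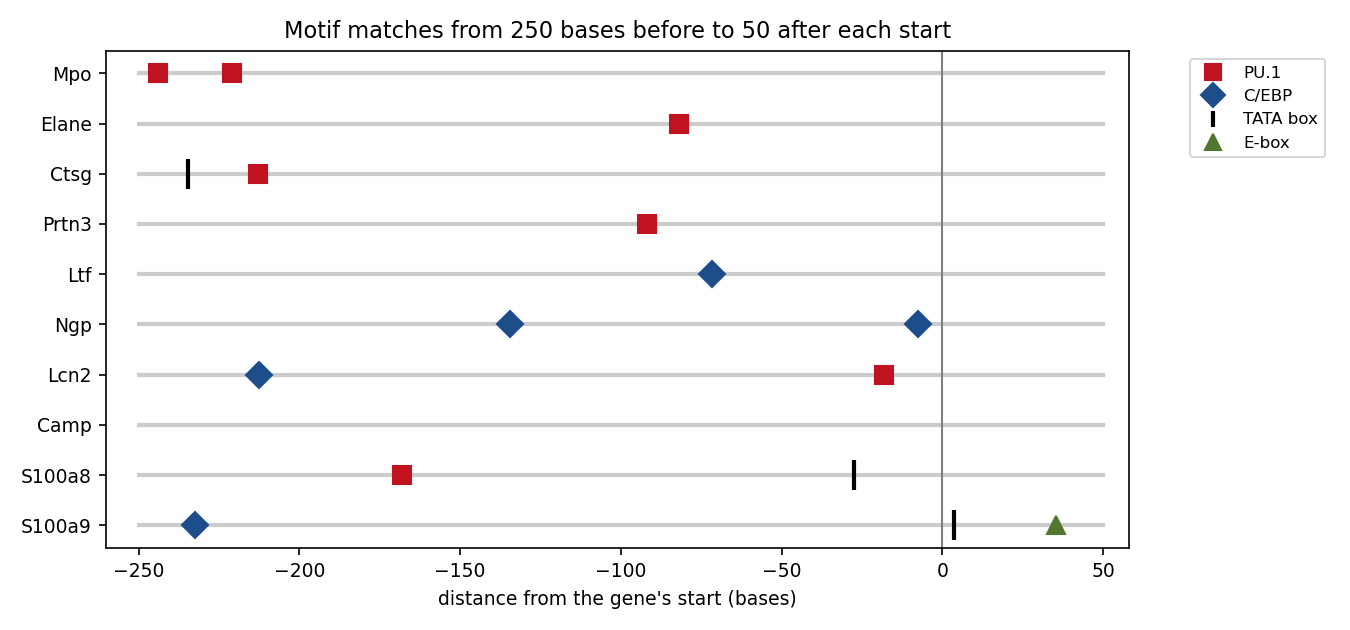
Matches of the PU.1 core, the C/EBP core, TATAAA and the E-box CAGATG in the promoters of the 10 genes, 1 line per gene, against distance from the annotated start in bases. PU.1 letters occur in all 4 primary genes and in Lcn2 and S100a8, C/EBP letters occur in 4 of the 6 later genes, and Camp holds none of these letters.

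The values are FPKM as deposited, fragments scaled by gene model length and library size, which allow genes to be compared per length. Whole reads could be recovered for 99.95% of genes, and the libraries held between 20325163 and 25069153 recovered reads in genes. The library size behind the FPKM, divided by those reads, was 1.15 in irradiated cKO and 0.896 in irradiated WT cells. It was 1.14 in steady cKO and 1.04 in steady WT cells. In irradiated WT cells the size was thus below the recovered reads, for a reason not known here. Intervals in brackets after a ratio are 95% intervals from those reads, and they cover counting error only. Twist1 itself had 0 reads in irradiated cKO, 5 in irradiated WT, 2 in steady cKO and 6 in steady WT cells, too few to check the genotype labels. Stem cell genes checked the sort: of a list of 16 LT-HSC genes, 1 reached 5 FPKM in irradiated cKO and 2 in irradiated WT cells, against 11 in steady cKO and 10 in steady WT cells. Hlf, a stem cell transcription factor, had 0.102 FPKM in irradiated cKO and 0.0608 in irradiated WT cells, against 17.7 in steady cKO and 17.4 in steady WT cells. The irradiated libraries thus held little of most defining LT-HSC transcripts. The steady libraries in turn held transcripts of CD34 and Flk2, which the gate excludes. Cd34 had 0.322 FPKM in irradiated cKO, 0.155 in irradiated WT, 29.2 in steady cKO and 18.4 in steady WT cells. Flt3, which encodes Flk2, had 1.32 FPKM in irradiated cKO, 0.519 in irradiated WT, 9.32 in steady cKO and 6.26 in steady WT cells. These are transcripts and not surface protein. Ly6a, which encodes Sca1, had 256 FPKM in irradiated cKO, 89.1 in irradiated WT, 362 in steady cKO and 534 in steady WT cells, and Kit had 4.98 FPKM in irradiated cKO, 8.52 in irradiated WT, 27.6 in steady cKO and 20.1 in steady WT cells. Sex-linked transcripts split the libraries the same way as irradiation: Xist had 0.573 FPKM in irradiated cKO and 1.0 in irradiated WT cells, against 0.0155 in steady cKO and 0.0171 in steady WT cells. Ddx3y had 0.0164 FPKM in irradiated cKO and 0.0521 in irradiated WT cells, against 12.4 in steady cKO and 10.2 in steady WT cells. Irradiation and that split cannot be told apart.

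Among the primary genes, Elane was the most abundant in every library. It had 88.9 FPKM in irradiated cKO, 22.3 in irradiated WT, 763 in steady cKO and 1007 in steady WT cells, and ranked 54 among all genes in the last of these. Prtn3 had 17.6 FPKM in irradiated cKO, 12.0 in irradiated WT, 182 in steady cKO and 220.0 in steady WT cells. Ctsg had 35.7 FPKM in irradiated cKO, 9.15 in irradiated WT, 138 in steady cKO and 205 in steady WT cells.

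Mpo had 15.4 FPKM in irradiated cKO, 2.73 in irradiated WT, 157 in steady cKO and 181 in steady WT cells. All 4 primary genes followed 1 order over the libraries: highest in steady WT, then steady cKO, then irradiated cKO, and lowest in irradiated WT cells. On the scale as deposited, each step in that order lay beyond the counting interval for all 4 genes. The step from steady WT to steady cKO depended on scaling. Without the 50 most abundant genes its difference in log2(FPKM + 1) was −0.01 for Mpo and −0.07 for Prtn3. Only 1 library stands for each group, so the spread between mice at any step is unknown. In these bulk libraries, fewer cells that carry a transcript and less of it per cell cannot be told apart.

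Among the later genes, the calprotectin chains were the most abundant. S100a9 had 436 FPKM in irradiated cKO, 149.6 in irradiated WT, 915 in steady cKO and 574 in steady WT cells. S100a8 had 411 FPKM in irradiated cKO, 117 in irradiated WT, 744 in steady cKO and 554 in steady WT cells. Both were highest in steady cKO cells, where S100a9 ranked 41 and S100a8 ranked 58 among all genes.

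Ngp had 266 FPKM in irradiated cKO, 101 in irradiated WT, 546 in steady cKO and 225 in steady WT cells. Camp had 107 FPKM in irradiated cKO, 40.2 in irradiated WT, 314 in steady cKO and 203 in steady WT cells. Both were lowest in irradiated WT cells, but Ngp in irradiated cKO cells lay above steady WT cells and Camp lay below them.

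Lactoferrin and lipocalin 2 transcripts were the least abundant of the later genes per length. Ltf had 20.9 FPKM in irradiated cKO, 7.26 in irradiated WT, 31.8 in steady cKO and 12.0 in steady WT cells. Lcn2 had 15.0 FPKM in irradiated cKO, 4.01 in irradiated WT, 23.2 in steady cKO and 10.4 in steady WT cells. For these genes too the irradiated cKO library lay above the steady WT library. Steady cKO cells had the highest level of all 6 later genes, whereas steady WT cells had the highest level of all 4 primary genes.

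**Figure D2:**
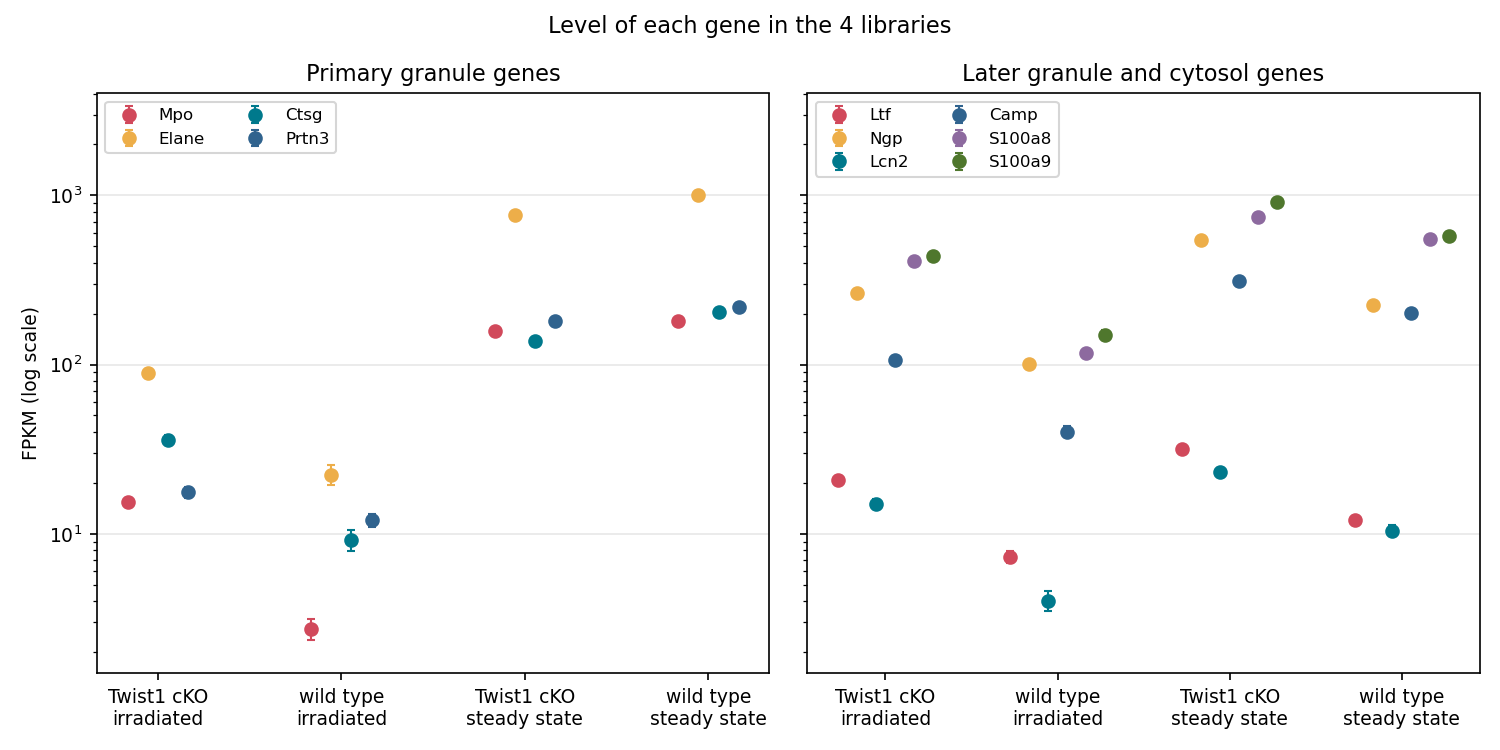
FPKM of the 10 genes on a log axis in irradiated cKO, irradiated WT, steady cKO and steady WT cells, 1 point per library with 95% counting intervals, primary genes and later genes in separate panels. Steady WT cells are the highest library for the 4 primary genes and steady cKO cells for the 6 later genes, and irradiated WT cells are the lowest for all 10.

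At steady state, loss of Twist1 went with opposite signs in the stages. The 4 primary genes were lower in cKO cells, by 1.15-fold (1.13 to 1.18) for Mpo, 1.21-fold (1.17 to 1.24) for Prtn3, 1.32-fold (1.28 to 1.36) for Elane and 1.48-fold (1.42 to 1.55) for Ctsg. The 6 later genes were higher in cKO cells: Ltf by 2.66-fold (2.48 to 2.85), Ngp by 2.43-fold (2.36 to 2.49), Lcn2 by 2.23-fold (2.04 to 2.44), S100a9 by 1.59-fold (1.53 to 1.66), Camp by 1.55-fold (1.49 to 1.61) and S100a8 by 1.34-fold (1.31 to 1.38). In differences of log2(FPKM + 1), a scale on which the changes of low genes are understated, the primary median was −0.34 (from −0.57 to −0.20) and the later median 0.88 (from 0.43 to 1.34). The gap between the stages was −1.21, beside a median of 0.01 over the 7157 genes that reached 5 FPKM in either library.

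Within the later stage the sizes were uneven at steady state. Ltf, Ngp and Lcn2 were at least 2-fold higher in cKO cells and 0 members were at least 2-fold lower, where over the 7157 genes 0.643% were at least 2-fold higher (46 genes) and 2.70% lower (193 genes). Camp, S100a9 and S100a8 stayed under 2-fold. The higher share of those called genes (19.2%) depended on scaling: without the 50 most abundant genes it was 80 higher and 151 lower (34.6%), and with recovered reads as the scale 68 and 163 (29.4%). The sign of each of the 10 genes was the same under the 4 scalings, here and in the other comparisons. Without the 50 most abundant genes, however, Mpo came to −0.01 and Prtn3 to −0.07 here.

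After irradiation both stages were higher in cKO than in WT cells. The primary genes were 5.63-fold (4.85 to 6.55) higher for Mpo, 3.99-fold (3.45 to 4.63) for Elane, 3.91-fold (3.35 to 4.58) for Ctsg and 1.46-fold (1.30 to 1.65) for Prtn3. The later genes were higher by 3.74-fold (3.23 to 4.33) for Lcn2, 3.53-fold (3.35 to 3.72) for S100a8, 2.91-fold (2.70 to 3.15) for S100a9, 2.88-fold (2.62 to 3.18) for Ltf, 2.66-fold (2.43 to 2.91) for Camp and 2.63-fold (2.51 to 2.75) for Ngp. The median difference was 1.90 for the primary genes (0.52 to 2.13) and 1.47 for the later genes (1.38 to 1.81). That left a gap of 0.43, where the median over 6348 genes was −0.45. Prtn3 stood apart from the other 3 primary genes in this contrast, at 12.0 FPKM in irradiated WT cells where Mpo had 2.73.

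In the irradiated pair, 9 of the 10 genes were at least 2-fold higher in cKO cells, 3 primary and 6 later, beside 4.47% of all genes (284), and 0 were at least 2-fold lower, beside 1.04% (66). Mpo and Lcn2 were under 5 FPKM in irradiated WT cells and pass that minimum through the cKO library. Among all called genes the higher share was 81.1%. It was 94.2% (467 higher and 29 lower) without the 50 most abundant genes and 92.9% (485 and 37) with recovered reads. Relative to the median of all genes the primary median was 2.35 and the later median 1.92. Each scaling multiplies a library by 1 factor, which this subtraction nearly cancels, so likeness of these values over the scalings is no check. The primary median itself was 2.27 without the 50 most abundant genes.

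In WT cells, irradiation went with a far larger drop in primary than in later transcripts. Irradiated WT cells had 66.3-fold (57.8 to 76.4) less Mpo than steady WT cells, 45.2-fold (39.6 to 51.7) less Elane, 22.4-fold (19.5 to 25.9) less Ctsg and 18.3-fold (16.7 to 20.1) less Prtn3. The later genes were lower by 5.05-fold (4.65 to 5.48) for Camp, 4.75-fold (4.52 to 5.0) for S100a8, 3.84-fold (3.56 to 4.13) for S100a9, 2.60-fold (2.24 to 3.03) for Lcn2, 2.22-fold (2.13 to 2.32) for Ngp and 1.65-fold (1.49 to 1.83) for Ltf. The median difference was −4.89 for the primary genes (−5.61 to −4.09) and −1.56 for the later genes (−2.31 to −0.65), a gap of −3.33. All 4 primary and 5 of 6 later genes were at least 2-fold lower and 0 at least 2-fold higher, beside 18.9% of 7418 genes lower (1401) and 18.9% higher (1400). With the median of ratios Ngp came to −0.99 and 8 members were called in place of 9. The genome-wide split moved with scaling, to 677 higher and 1854 lower without the 50 most abundant genes, to 933 and 1686 with recovered reads and to 1817 and 1221 with the median of ratios.

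In cKO cells the drop with irradiation had the same order of stages and was smaller. Prtn3 was 10.3-fold (9.58 to 11.2) lower in irradiated than in steady cKO cells, Mpo 10.2-fold (9.64 to 10.8), Elane 8.58-fold (8.03 to 9.18) and Ctsg 3.86-fold (3.58 to 4.16). The later genes were lower by 2.94-fold (2.79 to 3.09) for Camp, 2.1-fold (2.01 to 2.20) for S100a9, 2.05-fold (2.0 to 2.11) for Ngp, 1.81-fold (1.76 to 1.87) for S100a8, 1.55-fold (1.43 to 1.68) for Lcn2 and 1.52-fold (1.43 to 1.62) for Ltf. Medians were −3.18 for the primary genes (−3.30 to −1.92) and −0.94 for the later genes (−1.54 to −0.58), a gap of −2.24. At least 2-fold lower were 7 genes, 4 primary and 3 later, and 0 were at least 2-fold higher, beside 22.6% of 7393 genes lower (1673) and 10.3% higher (762). The later calls depended on the scaling: with the median of ratios Camp alone of the later genes was at least 2-fold lower (5 members in all, Ngp at −0.78 and S100a9 at −0.81), and without the 50 most abundant genes S100a8 was called too (8 members). The 4 primary genes were called under all 4 scalings. With the median of ratios the genome-wide split was 1205 higher and 1278 lower. Relative to the median of all genes, the primary and later medians were −5.09 and −1.77 in WT and −2.98 and −0.75 in cKO cells. The contrasts of irradiation and of genotype share libraries, so they are not separate evidence of each other.

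**Figure D3:**
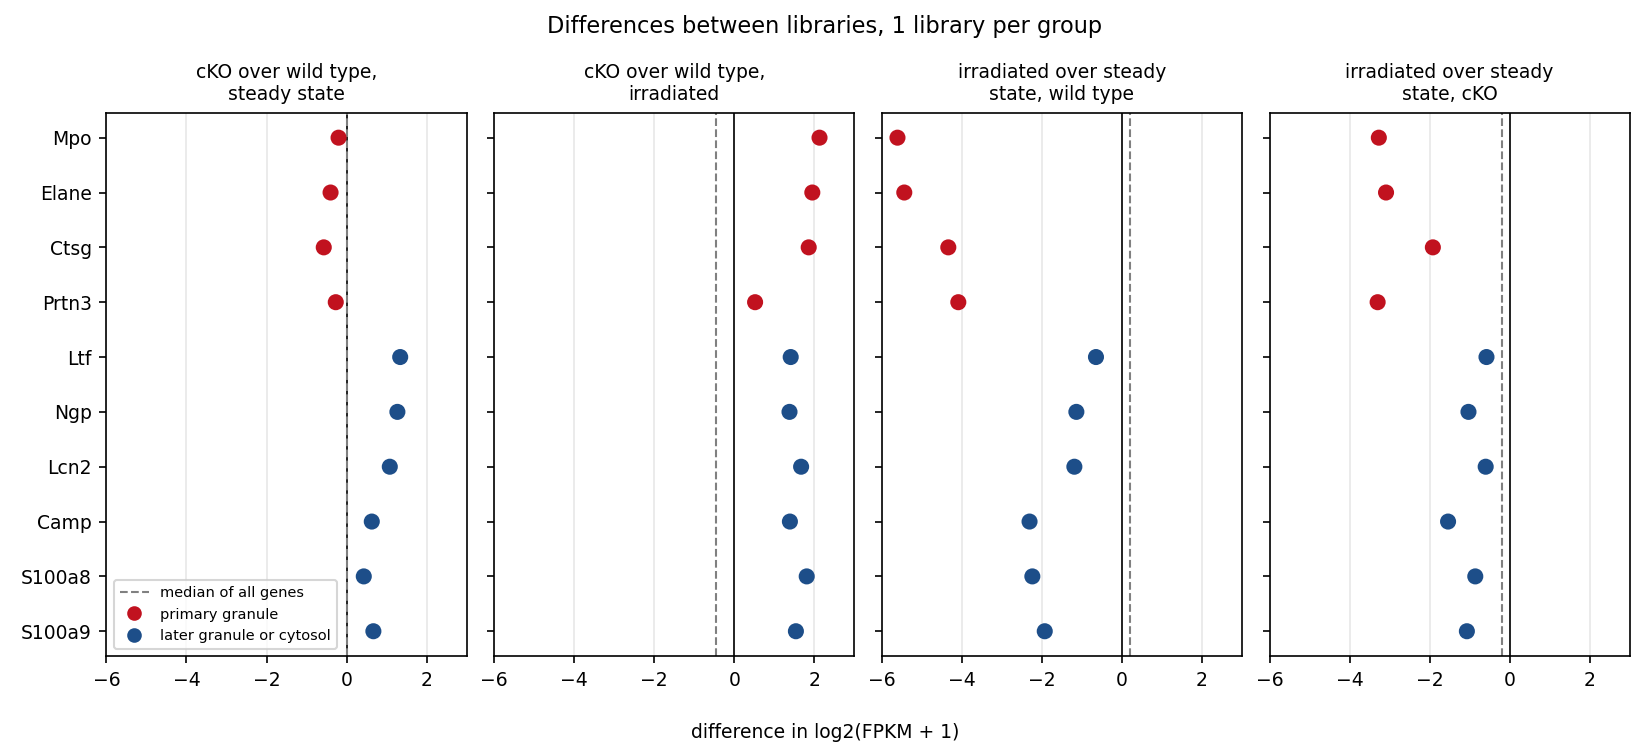
Differences in log2(FPKM + 1) for each gene in the 4 comparisons, cKO minus WT at steady state and after irradiation and irradiated minus steady in WT and in cKO cells, with the median over all genes as a line. At steady state primary genes lie below 0 and later genes above it, after irradiation all 10 lie above 0, and in both irradiation comparisons all 10 lie below 0.

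The genotype difference after irradiation exceeded that at steady state in value for every one of the 10 genes. For Ltf the counting intervals of the 2 ratios overlapped, at 2.62 to 3.18 after irradiation and 2.48 to 2.85 at steady state. On the log2 scale the excess was 2.42 for Ctsg, 2.35 for Elane, 2.34 for Mpo and 0.79 for Prtn3, with a primary median of 2.24. For the later genes it was 1.38 for S100a8, 0.86 for S100a9, 0.76 for Camp, 0.59 for Lcn2, 0.11 for Ngp and 0.07 for Ltf. Ltf and Ngp had the smallest excess, and it depended on the scaling: it was 0.27 for Ltf and 0.34 for Ngp with recovered reads, and 0.22 and 0.30 without the 50 most abundant genes. Mpo, Elane, Ctsg and Prtn3 lay on opposite sides of 0 in the conditions. These differences of differences were not tested.

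Summed over the genes of a stage, the primary level was 158 FPKM in irradiated cKO, 46.2 in irradiated WT, 1240 in steady cKO and 1612 in steady WT cells. The later sum was 1256 FPKM in irradiated cKO, 419 in irradiated WT, 2574 in steady cKO and 1578 in steady WT cells. Later transcripts outweighed primary ones in every library but that of steady WT cells, where the sums were close. That closeness rested on Elane, which made up 62.4% of the primary sum in steady WT cells. Without Elane the primary sum there was 606 FPKM. S100a9, the leading later gene, made up 36.4% of the later sum there, which was 1004 FPKM without it. Primary genes made up 11.1% of the summed FPKM of the 10 genes in irradiated cKO, 9.92% in irradiated WT, 32.5% in steady cKO and 50.5% in steady WT cells. After irradiation the stage mix of the genotypes was nearly alike while the amount was not: the 10 genes together made up 0.277% of all FPKM in irradiated cKO and 0.0800% in irradiated WT cells. At steady state they made up 0.794% in cKO and 0.526% in WT cells, with a different mix.

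**Figure D4:**
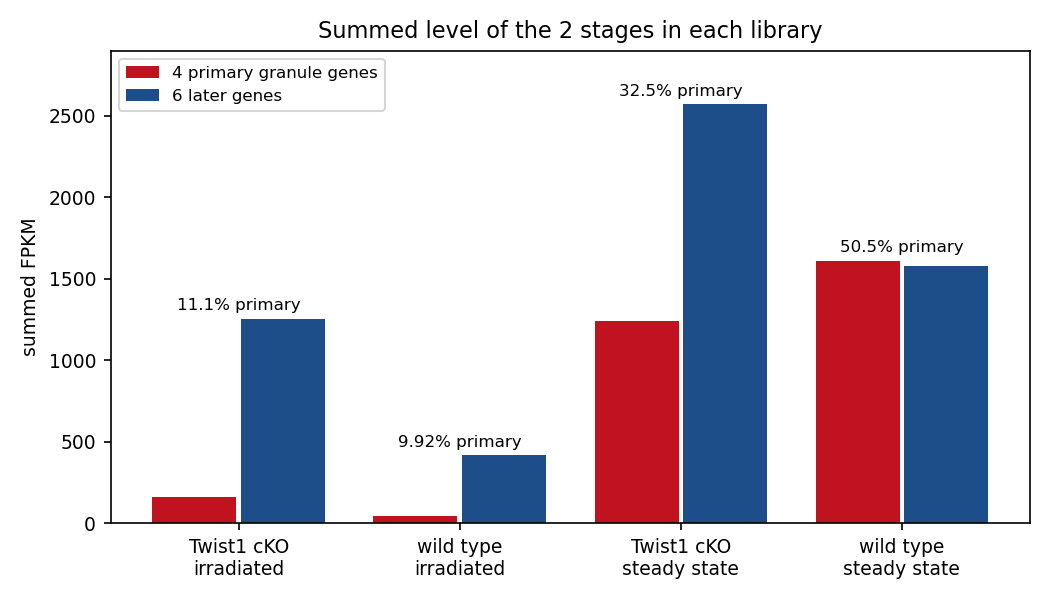
Summed FPKM of the 4 primary and the 6 later genes in each library, with the primary share of the summed FPKM given in percent. Primary genes make up about as much as later genes in steady WT cells, less in steady cKO cells, and a small share in both irradiated libraries.

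Ratios between genes within a library do not depend on its scaling. S100a8 over S100a9, whose products form 1 complex, stayed near 1 at 0.944 (0.902 to 0.987) in irradiated cKO, 0.779 (0.718 to 0.846) in irradiated WT, 0.814 (0.789 to 0.839) in steady cKO and 0.965 (0.930 to 1.0) in steady WT cells. Ngp over Elane, a later gene over a primary one, was 3.0 (2.80 to 3.21) in irradiated cKO, 4.55 (3.97 to 5.23) in irradiated WT, 0.716 (0.698 to 0.735) in steady cKO and 0.224 (0.217 to 0.230) in steady WT cells. The calprotectin pair thus moved within a narrow range while the pair across the stages spread widely.

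Within stages the ratios also moved. Elane over its neighbour Prtn3 was 5.05 (4.58 to 5.57) in irradiated cKO, 1.85 (1.57 to 2.18) in irradiated WT, 4.19 (4.06 to 4.32) in steady cKO and 4.58 (4.46 to 4.70) in steady WT cells. Irradiated WT cells were the exception there. Elane over Ctsg was 2.49 (2.26 to 2.73) in irradiated cKO, 2.44 (2.01 to 2.96) in irradiated WT, 5.53 (5.32 to 5.75) in steady cKO and 4.92 (4.76 to 5.08) in steady WT cells, which separated the irradiated from the steady libraries. Ngp over Camp was 2.49 (2.37 to 2.62) in irradiated cKO, 2.52 (2.32 to 2.75) in irradiated WT, 1.74 (1.69 to 1.79) in steady cKO and 1.11 (1.07 to 1.15) in steady WT cells, and separated the genotypes at steady state alone.

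Related genes were counted where either library of a comparison reached 5 FPKM, so a gene can enter a count only through the library in which it is high. Where that moved a genotype count, the count over genes that reached 5 FPKM in both libraries is given too. Over all genes, 0.643% were at least 2-fold higher and 2.70% lower in cKO than in WT cells at steady state. After irradiation 4.47% were higher and 1.04% lower. Irradiated against steady, 18.9% were higher and 18.9% lower in WT cells, and 10.3% higher and 22.6% lower in cKO cells.

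Other genes of the primary granule were counted from a list of 10. At steady state 0 of 9 kept genes were at least 2-fold apart between genotypes (median −0.25), and after irradiation 2 of 8 were higher in cKO cells (median 0.29). With both irradiated libraries at 5 FPKM it was 1 of 7 (median 0.25), since Ms4a3 entered through the cKO library. Ms4a3, a gene of granulocyte and monocyte progenitors, had 6.63 FPKM in irradiated cKO, 1.41 in irradiated WT, 46.0 in steady cKO and 63.8 in steady WT cells, the same order of libraries as the 4 primary genes. Fcnb, which encodes ficolin B, had 3.22 FPKM in irradiated cKO, 0.607 in irradiated WT, 48.2 in steady cKO and 38.9 in steady WT cells, with the cKO library the higher at steady state. Irradiated against steady cells, 5 of 9 genes were at least 2-fold lower in WT (median −1.11) and 4 of 9 in cKO (median −0.60).

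Genes that process or inhibit the granule proteases were taken from a list of 11. At steady state 1 of 7 kept genes was at least 2-fold lower in cKO cells (median −0.37), and after irradiation 3 of 7 were higher (median 0.60), or 2 of 6 with both libraries at 5 FPKM (median 0.59). With irradiation, 4 of 7 were lower in WT (median −2.37) and 3 of 7 were lower in cKO, where the median was 0.31. Serpinb1a, an inhibitor of elastase, proteinase 3 and cathepsin G, had 10.4 FPKM in irradiated cKO, 4.60 in irradiated WT, 123 in steady cKO and 94.1 in steady WT cells. Slpi, a secreted inhibitor of elastase and cathepsin G, had 121 FPKM in irradiated cKO, 53.0 in irradiated WT, 86.6 in steady cKO and 289 in steady WT cells. Ctsc, the peptidase that activates these proteases, had 56.0 FPKM in irradiated cKO, 40.3 in irradiated WT, 32.6 in steady cKO and 51.6 in steady WT cells, a much smaller range than its substrates.

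Other secondary and tertiary granule genes came from a list of 18. At steady state 2 of 9 were at least 2-fold higher and 1 lower in cKO cells (median −0.08), and after irradiation 4 of 8 were higher (median 1.0). With both libraries at 5 FPKM, 1 of 8 was higher and 1 lower at steady state, and 2 of 6 were higher after irradiation (median 0.89). Chil3, a chitinase-like protein, had 41.8 FPKM in irradiated cKO, 15.1 in irradiated WT, 115 in steady cKO and 40.8 in steady WT cells. Cd177, a neutrophil surface and granule protein, had 5.0 FPKM in irradiated cKO, 1.46 in irradiated WT, 5.41 in steady cKO and 2.1 in steady WT cells. Both were higher in cKO cells in either condition, as the 6 later genes were. The kept genes as a group were not: at steady state 4 of the 9 lay above 0 and 5 below. The rest of the list of 18 was under 5 FPKM in both steady libraries and was not counted. Hp (−0.08) and Pglyrp1 (0.02) were close between genotypes there. After irradiation all 8 kept genes lay above 0. Cfp, which encodes properdin, had 164 FPKM in irradiated cKO, 85.5 in irradiated WT, 51.4 in steady cKO and 142 in steady WT cells and was lower in steady cKO than steady WT cells. Between irradiated and steady cells, 6 of 8 were lower in WT (median −1.60), and in cKO 4 of 9 were lower and 1 higher (median −0.86).

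Mature neutrophil surface and cytosol genes, a list of 21, were summed as a marker of whole neutrophils. The sum was 264 FPKM in irradiated cKO, 125 in irradiated WT, 179.6 in steady cKO and 201 in steady WT cells, and no gene of the list was at 0 in any library. Fcgr3, an Fc receptor that other myeloid cells also carry and that stands in the myeloid progenitor list too, made up 50.4% of the sum in irradiated cKO, 60.9% in irradiated WT, 17.8% in steady cKO and 35.9% in steady WT cells. Without Fcgr3 the sum was 131 FPKM in irradiated cKO, 48.7 in irradiated WT, 148 in steady cKO and 129 in steady WT cells, so the order of the genotypes at steady state turned. At steady state 1 of 13 was at least 2-fold higher and 2 lower in cKO cells (median 0.16), and after irradiation 4 of 7 were higher (median 1.31). Over genes with both libraries at 5 FPKM these were 0 of 10 higher and 1 lower at steady state, and 1 of 4 higher after irradiation (median 0.88), since Retnlg, Trem3 and Lrg1 entered through the irradiated cKO library. Retnlg, a resistin-like protein, had 36.7 FPKM in irradiated cKO, 4.83 in irradiated WT, 14.2 in steady cKO and 3.35 in steady WT cells, higher in cKO cells in both conditions. Csf3r, the G-CSF receptor, had 0.721 FPKM in irradiated cKO, 0.313 in irradiated WT, 15.1 in steady cKO and 10.8 in steady WT cells. Ly6g, a defining surface protein of neutrophils, had 1.49 FPKM in irradiated cKO, 1.44 in irradiated WT, 2.69 in steady cKO and 0.734 in steady WT cells. Fpr1 went the other way at steady state. It had 23.4 FPKM in irradiated cKO, 11.5 in irradiated WT, 4.76 in steady cKO and 16.2 in steady WT cells. Of the 13 genes kept at steady state, 7 lay above 0 and 6 below. Irradiated against steady cells, 7 of 11 were lower in WT (median −1.40), and in cKO 4 of 13 were lower and 4 higher (median −0.83). The part of whole neutrophils in the values of the 10 genes was not tested.

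Of 7 genes of the phagocyte oxidase, the enzyme that feeds superoxide to myeloperoxidase, 0 of 6 were at least 2-fold apart between genotypes at steady state (median −0.05) and 1 of 5 was higher in cKO cells after irradiation (median 0.24). That gene was Cybb, the catalytic subunit, which entered through the cKO library and had 6.92 FPKM in irradiated cKO, 2.54 in irradiated WT, 5.56 in steady cKO and 7.60 in steady WT cells. With irradiation, 4 of 6 were lower in WT (median −1.46) and 3 of 6 in cKO (median −0.74).

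Of 13 transcription factors of granulocyte formation, 0 of 10 at steady state (median 0.03) and 0 of 7 after irradiation (median −0.05) were at least 2-fold apart between genotypes. In a list this short, 0 is near the low shares over all genes given above, so it says little about the factors. Cebpa and Cebpe were under 5 FPKM in every library and were not counted. Spi1, which encodes PU.1, had 22.1 FPKM in irradiated cKO, 15.8 in irradiated WT, 59.97 in steady cKO and 55.6 in steady WT cells. Gfi1 had 0.499 FPKM in irradiated cKO, 0.292 in irradiated WT, 9.23 in steady cKO and 7.74 in steady WT cells, so it was near 0 after irradiation in both genotypes. Cebpb, a C/EBP factor of stress granulopoiesis, had 19.8 FPKM in irradiated cKO, 17.6 in irradiated WT, 108 in steady cKO and 125 in steady WT cells. Cebpe, which drives secondary granule genes, had 0.310 FPKM in irradiated cKO, 0.219 in irradiated WT, 2.72 in steady cKO and 2.82 in steady WT cells. Between irradiated and steady cells, 8 of 11 factors were lower and 1 higher in WT (median −1.75), and 8 of 11 lower and 2 higher in cKO (median −1.49).

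The other S100 genes, a list of 10, were compared with S100a8 and S100a9. At steady state 0 of 5 were at least 2-fold apart between genotypes (median −0.19), and after irradiation 1 of 5 was higher in cKO cells (median −0.11). S100a6, that 1 gene, entered through the cKO library and had 10.3 FPKM in irradiated cKO, 4.16 in irradiated WT, 42.1 in steady cKO and 46.9 in steady WT cells. S100a11 had 118 FPKM in irradiated cKO, 103 in irradiated WT, 554 in steady cKO and 609 in steady WT cells. S100a11 was thus close between genotypes in both conditions. After irradiation against steady state, 4 of 5 were at least 2-fold lower in WT (median −1.28) and 4 of 5 in cKO (median −1.19).

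Receptors for the secreted products were mostly low. Of 6 receptors and partners of calprotectin, 2 were kept at steady state and 3 after irradiation, with 0 at least 2-fold apart between genotypes. Tlr4, the receptor for calprotectin, had 1.01 FPKM in irradiated cKO, 0.634 in irradiated WT, 2.37 in steady cKO and 2.31 in steady WT cells. In irradiated against steady cells, 1 of 2 was higher and 1 lower in WT, and 1 of 3 higher and 1 lower in cKO. Of 6 receptors for lipocalin 2, lactoferrin, cathelicidin and myeloperoxidase, Slc22a17, the lipocalin 2 receptor, alone reached 5 FPKM. It had 0.520 FPKM in irradiated cKO, 0.0984 in irradiated WT, 8.98 in steady cKO and 6.71 in steady WT cells, so it was under 2-fold apart between genotypes at steady state and at least 2-fold lower in irradiated than in steady cells of both genotypes.

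**Figure D5:**
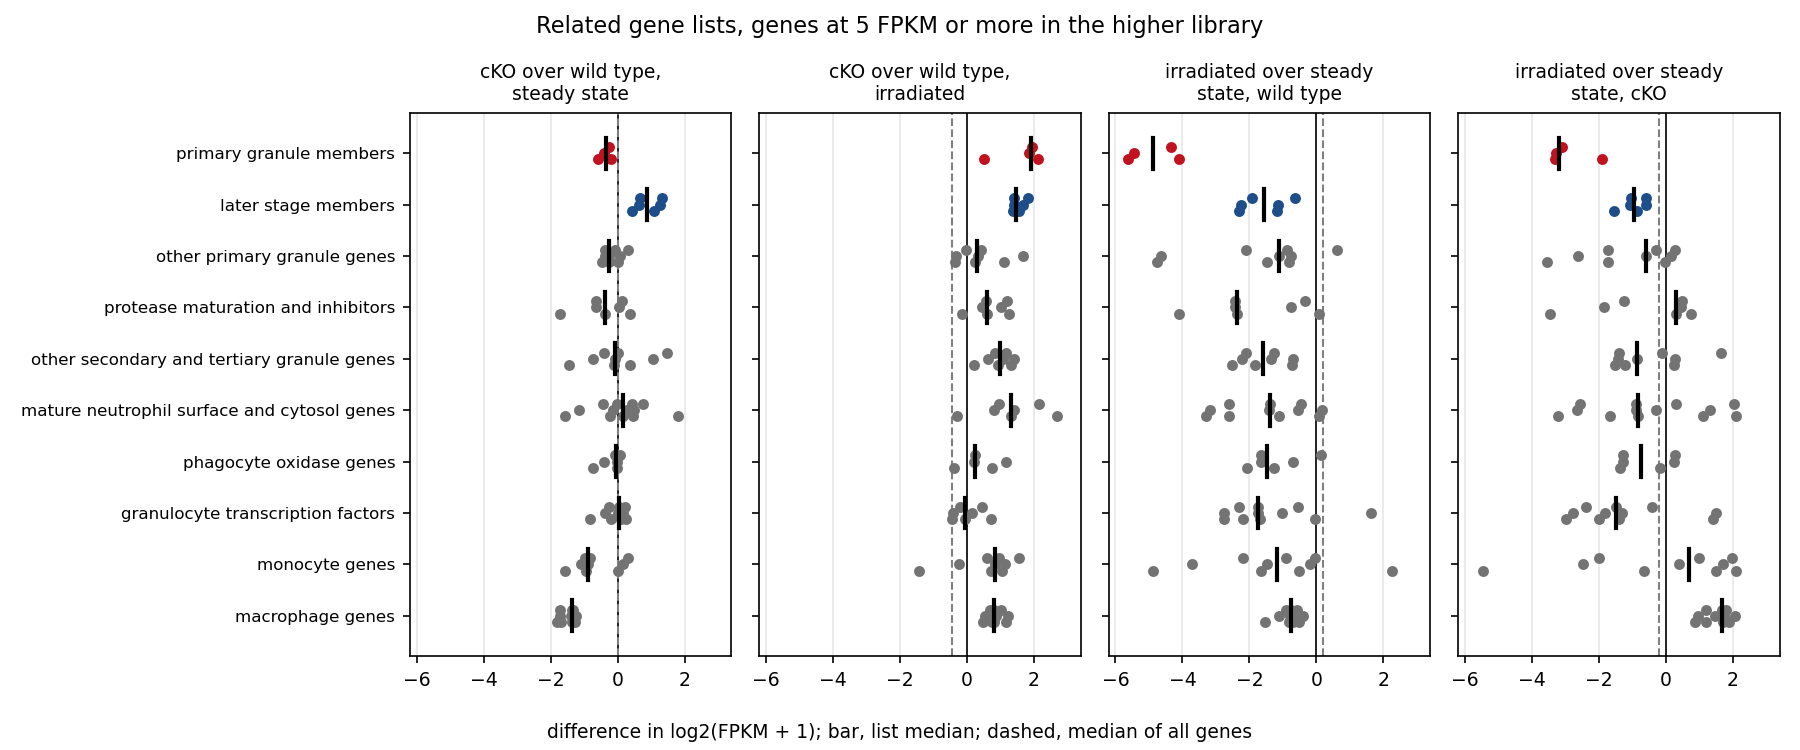
Differences in log2(FPKM + 1) of single genes that reached 5 FPKM in either library, by list, in the 4 comparisons, with bars for list medians and a dashed line for the median of all genes. In cKO over WT the later genes lie above 0 in both conditions, and the primary genes lie below 0 at steady state and above it after irradiation. The kept transcription factors stay within 2-fold there, as do most of all genes.

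Markers of other blood cells moved with the contrasts as well, and their part in the results was not tested. Macrophage genes (12) summed to 1539 FPKM in irradiated cKO, 864 in irradiated WT, 458 in steady cKO and 1463 in steady WT cells. At steady state 11 of 11 kept macrophage genes were at least 2-fold lower in cKO cells (median −1.37), while the later granule genes were higher there. With both libraries at 5 FPKM it was 10 of 10 (median −1.38). After irradiation 3 of 11 were at least 2-fold higher in cKO cells (median 0.81), the direction of both granule stages.

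Monocyte genes (13) summed to 117 FPKM in irradiated cKO, 79.2 in irradiated WT, 652 in steady cKO and 732 in steady WT cells. Nr4a1, a factor that is also an immediate early gene, made up 67.7% of the sum in steady cKO and 48.2% in steady WT cells. Without it the sum was 108 FPKM in irradiated cKO, 53.4 in irradiated WT, 210.5 in steady cKO and 379 in steady WT cells. At steady state 2 of 9 kept monocyte genes were at least 2-fold lower in cKO cells and 0 higher (median −0.89), and after irradiation 3 of 9 were higher and 1 lower (median 0.84). With both libraries at 5 FPKM, 1 of 6 was lower at steady state (median −0.44). After irradiation 2 of 6 were then higher and 1 lower (median 0.66).

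T and NK cell genes (10) summed to 148 FPKM in irradiated cKO, 87.1 in irradiated WT, 370.4 in steady cKO and 373 in steady WT cells, most of it Nkg7, a gene of cytotoxic granules. Without Nkg7 the sum was 49.4 FPKM in irradiated cKO, 11.5 in irradiated WT, 45.3 in steady cKO and 55.2 in steady WT cells. After irradiation 5 of 6 kept T and NK cell genes were at least 2-fold higher in cKO cells (median 1.67, beside 1.90 for the primary and 1.47 for the later granule genes), all 5 through the cKO library. At steady state 0 of 4 were at least 2-fold apart (median −0.28).

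B and plasma cell genes (12) summed to 4631 FPKM in irradiated cKO, 1614 in irradiated WT, 3255 in steady cKO and 5773 in steady WT cells, most of it Jchain. Without Jchain the sum was 367 FPKM in irradiated cKO, 191 in irradiated WT, 460.3 in steady cKO and 710.1 in steady WT cells. After irradiation 3 of 8 kept B and plasma cell genes were at least 2-fold higher in cKO cells (median 0.86), and at steady state 1 of 8 was lower (median −0.43). Erythroid genes (12) summed to 16865 FPKM in irradiated cKO and 13891 in irradiated WT cells, against 2710 in steady cKO and 4111 in steady WT cells, opposite to the 10 granule genes in both irradiation comparisons. Between genotypes, 6 of 12 erythroid genes were at least 2-fold higher and 1 lower in cKO cells after irradiation, and 4 of 10 were lower at steady state. With both irradiated libraries at 5 FPKM, 5 of 11 were higher and 1 lower.

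Eosinophil, basophil and mast cell granule genes (15) summed to 197 FPKM in irradiated cKO, 118 in irradiated WT, 223 in steady cKO and 274 in steady WT cells, with the mast cell protease Mcpt4 at 0 in both irradiated libraries and Tpsb2 at 0 in irradiated WT cells. Without Prg2, its most abundant gene, the sum was 99.5 FPKM in irradiated cKO, 66.1 in irradiated WT, 90.2 in steady cKO and 128 in steady WT cells. Myeloid progenitor genes (15) summed to 563 FPKM in irradiated cKO, 527 in irradiated WT, 815 in steady cKO and 871 in steady WT cells. At least 2-fold lower in irradiated than in steady cells were 8 of 13 in WT (median −1.57). In cKO 6 of 13 were lower and 2 higher (median −0.64). Between genotypes 1 of 13 was lower in cKO cells at steady state (median −0.05). After irradiation 1 of 9 was higher (median 0.78), or 0 of 6 with both libraries at 5 FPKM (median 0.55).

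LT-HSC genes (16) summed to 270.2 FPKM in irradiated cKO, 108 in irradiated WT, 711 in steady cKO and 816 in steady WT cells, but Ly6a alone made up 94.6% of the sum in irradiated cKO, 82.8% in irradiated WT, 50.8% in steady cKO and 65.3% in steady WT cells. Without Ly6a the sum was 14.6 FPKM in irradiated cKO, 18.5 in irradiated WT, 349.7 in steady cKO and 283 in steady WT cells, so the order of the genotypes turned in both conditions. Apart from Mcpt4 and Tpsb2, the B cell factor Pax5, at 0 in irradiated WT cells, was the only marker of these lists at 0 in any library.

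Among 5017 genes that reached 10 FPKM in some library, those whose centred log2(FPKM + 1) profile over the 4 libraries was nearest to the primary mean were Ms4a3 (distance 0.211), Pf4 (0.405), Ly6c2 (0.428), Fcnb (0.537) and Ltb (0.621). The 4 primary genes themselves lay at 0.449 to 0.802 from their mean. Nearest to the later mean were Chil3 (0.441), Cd69 (0.674), Lrg1 (0.685), Wfdc21 (0.790) and Anxa1 (0.791), where the 6 later genes lay at 0.289 to 0.720. Chil3 and Ms4a3 are granule or precursor genes of neutrophils. Fcnb, Lrg1, Wfdc21 and Anxa1 also stand in the granule, mature neutrophil or protease inhibitor lists above, and Cd69 in that of calprotectin receptors and partners. Pf4 in contrast is a platelet chemokine gene, Ly6c2 a monocyte surface gene and Ltb a lymphocyte cytokine gene. With only 4 libraries, many genes can have a like profile.

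Some genes next to the 10 went with them and others did not. Plppr3, 4708 bases from Prtn3, had 0.225 FPKM in irradiated cKO, 0.166 in irradiated WT, 14.7 in steady cKO and 10.3 in steady WT cells. Like Prtn3 it was lower in irradiated than in steady cells, by −3.28 in WT and −3.68 in cKO on the log2 scale, but at steady state it was higher in cKO cells (0.47) where Prtn3 was lower. Lpo, which encodes lactoperoxidase and lies 2015 bases from Mpo, had 0.272 FPKM in irradiated cKO, 0.0288 in irradiated WT, 0.0126 in steady cKO and 0.0123 in steady WT cells. Cfd, which encodes complement factor D and lies 2636 bases from Elane, had 1.25 FPKM in irradiated cKO, 3.86 in irradiated WT, 0.472 in steady cKO and 0.708 in steady WT cells, so it was lower in irradiated cKO than irradiated WT cells where Elane was higher. Nme6, 4402 bases from Camp, had 31.7 FPKM in irradiated cKO, 41.7 in irradiated WT, 17.0 in steady cKO and 16 in steady WT cells, higher in irradiated than in steady cells where Camp was lower. Ccrl2, 12067 bases from Ltf, had 5.71 FPKM in irradiated cKO, 6.45 in irradiated WT, 33.5 in steady cKO and 33.5 in steady WT cells. It was lower in irradiated cells, as Ltf was, by −2.21 in WT and −2.36 in cKO, but between genotypes it differed by 0.00 at steady state and −0.15 after irradiation, where Ltf was higher in cKO cells. S100a7a, which encodes another S100 protein and lies 10940 bases from S100a8, had 5.53 FPKM in irradiated cKO, 3.56 in irradiated WT, 0.186 in steady cKO and 0.360 in steady WT cells, opposite to the calprotectin chains with irradiation.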

How the data were processed

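The deposited values are FPKM per gene in 1 file per library, made by the authors. For the whole series, HOMER, MACS2 2.1.0, BWA 0.7.12-r1039, Bowtie and build mm10 are named in the submitters' processing notes. The tool that made the RNA-seq values is not given there. Symbols were joined to 30231 of 30409 identifiers. Differences were taken in log2(FPKM + 1), the values as deposited. Counts of genes at least 2-fold apart used genes with 5 FPKM or more in the higher library. Reads were recovered from whole-number ratios of each gene's values, with library sizes fixed by mitochondrial gene lengths, and gave 95% Clopper-Pearson intervals for levels and conditional exact binomial intervals for ratios. Reads of Elane and S100a9, with implied models of 460 and 261 bases, may be low by a whole factor, which would make their intervals too wide. The recovery was tested on simulated data.

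Named are all 10 genes, up to 4 genes per list and comparison by size of difference, genes whose role bears on the 10 (Cebpe, Tlr4, Ly6g, S100a11, Hlf, Xist, Ddx3y, chosen with their values known), the leading gene of some marker lists (also chosen with values known), some of the neighbours, and the 5 nearest profiles per stage. Members and lists were chosen with earlier results of these data known. Alternatives were another pseudocount, 3 scalings, means, other minimums and fewer later genes. After seeing the data, list sums without their leading gene, list counts with 5 FPKM in both libraries, the difference of differences under the other scalings and more promoter letters were added. Python 3.11.15, numpy 2.4.6, pandas 2.3.3, scipy 1.17.1 and matplotlib 3.10.9 were used.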

Additional observations from a re-analysis of the deposited data

Results flagged for a closer look

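The 4 primary granule genes were on opposite sides of 0 in the genotype comparison under the 2 conditions, higher in cKO than in WT cells after irradiation and lower in cKO than in WT cells at steady state. The cKO minus WT difference in log2(FPKM + 1) after irradiation exceeded that at steady state by 2.42 for Ctsg, 2.35 for Elane, 2.34 for Mpo and 0.79 for Prtn3. The difference between conditions was not tested, since each group had 1 library. Mpo had 15.4 FPKM in irradiated cKO and 2.73 in irradiated WT cells, against 157 in steady cKO and 181 in steady WT cells, and its steady state difference came to −0.01 without the 50 most abundant genes.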

How the results depend on the processing

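No stage median or gap changed sign under any alternative run: of 92 alternative values, 60 stayed within the limit set for agreement, 32 moved and 0 reversed. That tally overstates agreement, since the counts of genes and members in it have no sign to reverse. A gap between stages nearly cancels the scaling of a library, so the 3 scalings could not test the gaps. A minimum of 1 FPKM and none give the same counts by construction. Without the 50 most abundant genes, the primary and later medians were −0.14 and 1.07 (cKO over WT at steady state) and 2.27 and 1.85 (the same after irradiation), −5.21 and −1.88 (irradiated over steady, WT) and −3.33 and −1.10 (irradiated over steady, cKO). With recovered reads as the scale the genotype medians were −0.20 and 1.01 for steady cells, 2.25 and 1.82 for irradiated cells, and the later median in WT was −1.75. With the median of ratios the cKO medians were −2.93 and −0.69. With means over members the primary value was 1.61 and the gap 0.08 between genotypes after irradiation, and −2.89 and −1.95 between conditions in cKO. With the 4 later granule genes alone the later median was 1.18 and the gap −1.51 at steady state, −1.17 and −3.72 in WT, and −0.82 in cKO. With a minimum of 1 FPKM or none, genes at least 2-fold apart numbered 383 in place of 239 at steady state, 937 in place of 350 after irradiation, 4291 in place of 2801 in WT and 4487 in place of 2435 in cKO. The larger counts come from the larger number of genes admitted. Members at least 2-fold apart with the median of ratios numbered 8 in place of 9 in WT and 5 in place of 7 in cKO, and without the 50 most abundant genes 8 in cKO. No paired analysis was possible because each group had 1 library, and leaving out a replicate was not possible either. Counting error, the only error measured, is small beside most differences given, while variation between mice is unknown.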
